A study of Mus musculus with 6 samples.

Results

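The comparison described here set arachidonic acid (AA) against vehicle in mouse intestinal organoids, using ATAC-seq, an assay in which a transposase cuts and tags DNA that is not wrapped in closed chromatin. Its members were all consensus peaks, the regions called open and counted in every library, on chromosomes 1 to 19: 88965 of the 90823 peaks in the table, in 4 of its 6 libraries. The AA group received 25 µM AA and the control group its vehicle, each for 3 days, with 2 libraries per group. A further 2 libraries from organoids given 50 nM PGE2, as the protocol names it, entered the statistical fit for its estimate of spread and are otherwise given only for reference. All organoids were grown from isolated crypts in Matrigel with EGF, Noggin, R-spondin, CHIR-99021, Y-27632, N-acetyl-L-cysteine, B27 and N2, so the vehicle cultures too were under continuous growth factor and Wnt stimulation. Epithelial cells were sorted before the Omni-ATAC reaction. The labels give no strain, genotype, age or gut region, and they do not say whether the libraries of a group came from separate cultures or animals. The p-values therefore measure the spread between these libraries only, which may be technical.

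AA is an omega-6 polyunsaturated fatty acid that cells store in membrane phospholipids. Phospholipases release it, cyclooxygenases and synthases turn it into prostaglandins, and lipoxygenases turn it into leukotrienes. Open chromatin falls into promoters, which lie at gene starts and are often open in many tissues, and distal elements such as enhancers, which are more particular to a cell type and state and can act on genes far away.

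Over the 6 libraries the table held 12374232 to 14236985 counts per library, and log2 signal correlated at 0.981 to 0.982 between the libraries of a group. Signal is given as CPM, counts scaled to a common library size, and a change as its log2 ratio of AA over vehicle with the standard error (SE) of the fit. All 12 epithelial marker genes examined had a peak within 1 kb of a start. Such a peak was missing at 8 of 10 immune genes, 9 of 10 fibroblast and muscle genes and 6 of 10 endothelial and neural genes. Summed signal at all peaks of the epithelial list was 3981 and 4027 CPM in vehicle and 4067 and 4022 CPM with AA, and of the immune list 103 and 105 CPM against 102 and 101 CPM. In bulk libraries fewer cells of a type and less accessibility per cell cannot be told apart.

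The promoters of the 2 gene starts with the smallest p-values in each direction are shown first, since they are the places where a change in accessibility can be read against the sequence of a known start. Each is the 250 bases before the start, 5′ to 3′ on the gene's strand, from RefSeq (GRCm38.p6, the assembly of mm10). Isx (chr8:74872924-74873173, plus strand), a homeobox gene of the intestine, and Syt8 (chr7:142434600-142434849, plus strand), a synaptotagmin gene, became more accessible. Lmcd1 (chr6:112273508-112273757, plus strand), a LIM domain gene, and Chrm3 (chr13:10360804-10361053, minus strand), the gene of a muscarinic acetylcholine receptor, became less accessible. Capitals mark letters that match 1 of 6 motifs on either strand: TGANTCA (AP-1), TGACGTCA (CRE), GGAATG (TEAD), GGGCGG (GC box), CCAAT (NF-Y) and CAAAGTCCA (HNF4).
Isx: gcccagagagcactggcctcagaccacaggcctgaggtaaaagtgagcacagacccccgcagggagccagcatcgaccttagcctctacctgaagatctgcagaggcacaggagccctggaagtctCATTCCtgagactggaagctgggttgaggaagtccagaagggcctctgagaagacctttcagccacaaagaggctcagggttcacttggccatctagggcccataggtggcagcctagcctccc
Syt8: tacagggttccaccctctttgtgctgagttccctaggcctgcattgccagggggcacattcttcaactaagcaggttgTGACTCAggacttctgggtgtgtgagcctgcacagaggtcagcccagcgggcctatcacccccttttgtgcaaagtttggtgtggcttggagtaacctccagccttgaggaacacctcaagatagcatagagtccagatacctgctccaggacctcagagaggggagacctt
Lmcd1: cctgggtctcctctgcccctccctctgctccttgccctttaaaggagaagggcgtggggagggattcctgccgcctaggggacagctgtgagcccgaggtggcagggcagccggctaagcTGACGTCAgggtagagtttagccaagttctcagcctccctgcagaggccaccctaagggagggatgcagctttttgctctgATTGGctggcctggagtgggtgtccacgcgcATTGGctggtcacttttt
Chrm3: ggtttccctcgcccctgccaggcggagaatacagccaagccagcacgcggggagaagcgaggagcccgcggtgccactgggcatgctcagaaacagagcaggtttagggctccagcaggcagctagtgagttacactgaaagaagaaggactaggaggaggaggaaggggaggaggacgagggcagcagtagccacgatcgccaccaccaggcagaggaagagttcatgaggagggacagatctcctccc

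Counting from 1 at the first base printed, Isx had the TEAD letters at 127 and Syt8 the AP-1 letters at 79. Lmcd1 had the CRE letters at 121 and CCAAT letters at 202 and 233, and Chrm3 had no match in the window. A match is a description of letters and not evidence of a bound factor.

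The peak over the Isx start (chromosome 8, 74871583 to 74873621) held 34.9 and 35.5 CPM in the vehicle libraries and 64.8 and 63.7 CPM with AA. The 1.83-fold rise (log2 0.87, SE 0.07) passed edgeR's quasi-likelihood test with a Benjamini-Hochberg adjusted p = 7.53e-14. The Syt8 peak (chromosome 7, 142434055 to 142435005) went from 22.1 and 23.4 CPM to 45.7 and 45.8 CPM, a log2 change of 1.01 (SE 0.08). The Lmcd1 peak (chromosome 6, 112273451 to 112275164) held 65.9 and 67.6 CPM in vehicle against 32.0 and 31.7 CPM with AA. It fell 2.09-fold (log2 -1.07, SE 0.07; edgeR adjusted p = 5.5e-16). At Chrm3 (chromosome 13, 10359438 to 10361357) signal went from 19.3 and 21.7 CPM to 7.18 and 7.02 CPM, a 2.88-fold fall (log2 -1.53, SE 0.12). Peaks shown here were chosen to have no overlap between the groups, so that separation is given by the choice.

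AA changed accessibility in both directions across the genome. Of 87515 peaks with enough counts to test, 14675 were called higher with AA (16.8%) and 12115 lower (13.8%), which together is 30.6% of the tested peaks at an adjusted p under 0.05 in edgeR's quasi-likelihood test. The median called gain was 1.65-fold (log2 0.72) and the median called loss 1.56-fold (log2 -0.64). Changes of at least 2-fold were found at 4695 higher peaks (5.36%) and 2334 lower peaks (2.67%). Vehicle and AA libraries did not overlap at 65.3% of all tested peaks. With 2 libraries per group this is common without a call, as it held for 50.1% of the peaks not called. DESeq2 called 5993 peaks higher and 2968 lower, which raised the share of gains among calls from 54.8% to 66.9%, and scaling by library totals lowered it to 49.1% (13508 higher, 14024 lower). Leaving out 1 library gave 10203 to 16592 higher and 7652 to 13377 lower, with the lowest counts without vehicle replicate 1 and without AA replicate 1.

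Changes of at least 2-fold, in both directions, lay at weaker and narrower peaks farther from gene starts than tested peaks as a whole. All tested peaks had medians of 4.78 CPM in vehicle, 555 bp in width and 16189 bp in distance. These sets were chosen by the ratio of AA over vehicle, so a lower vehicle signal among the gains is in part given by the choice. Peaks at least 2-fold higher had a median vehicle signal of 1.45 CPM, which reached 3.88 CPM with AA, a median width of 402 bp and a median distance of 30708 bp from the nearest coding gene start. Peaks at least 2-fold lower went from a median 3.06 CPM to 1.27 CPM, were 449.5 bp wide and lay 45089 bp away. Peaks that were not called lay at a median of 14294 bp and were 518 bp wide. Only 81 of the 4695 strong gains (1.73%) and 121 of the 2334 strong losses (5.18%) were centred within 1 kb of a start, where 15.9% of all tested peaks lay.

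Losses were less frequent near gene starts than far from them. Within 1 kb of a start, 2154 of 13911 tested peaks were higher (15.5%) and 1010 lower (7.26%). From 1 to 10 kb, 15.2% were higher and 12.9% lower, and from 10 to 50 kb 17.3% and 13.8%. Beyond 50 kb, 3827 of 20765 were higher (18.4%) and 4022 lower (19.4%), and beyond 250 kb losses outnumbered gains, with 18.5% higher and 26.7% lower of 2817 peaks. With this test the share of gains ran from 15.2% to 18.4% over the 4 classes and the share of losses from 7.26% to 19.4%. The median log2 change fell from 0.07 within 1 kb to -0.08 beyond 50 kb and -0.15 beyond 250 kb. Within 1 kb, gains made up 68.1% of the calls, which became 59.1% when libraries were scaled by their totals and 58.9% with loess scaling. With library totals the class from 1 to 10 kb turned to more losses (2837 higher, 3130 lower) and that from 10 to 50 kb was near even (5216 and 5163). Beyond 50 kb loess scaling turned it to slightly more gains (3971 and 3868). DESeq2, with far fewer calls, had both shares rising with distance: 3.11%, 6.16%, 7.63% and 8.82% higher and 1.34%, 2.57%, 3.32% and 5.70% lower. Gains were 69.9%, 70.6%, 69.7% and 60.7% of its calls, so that beyond 50 kb gains were the larger side.

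**Figure D1:**
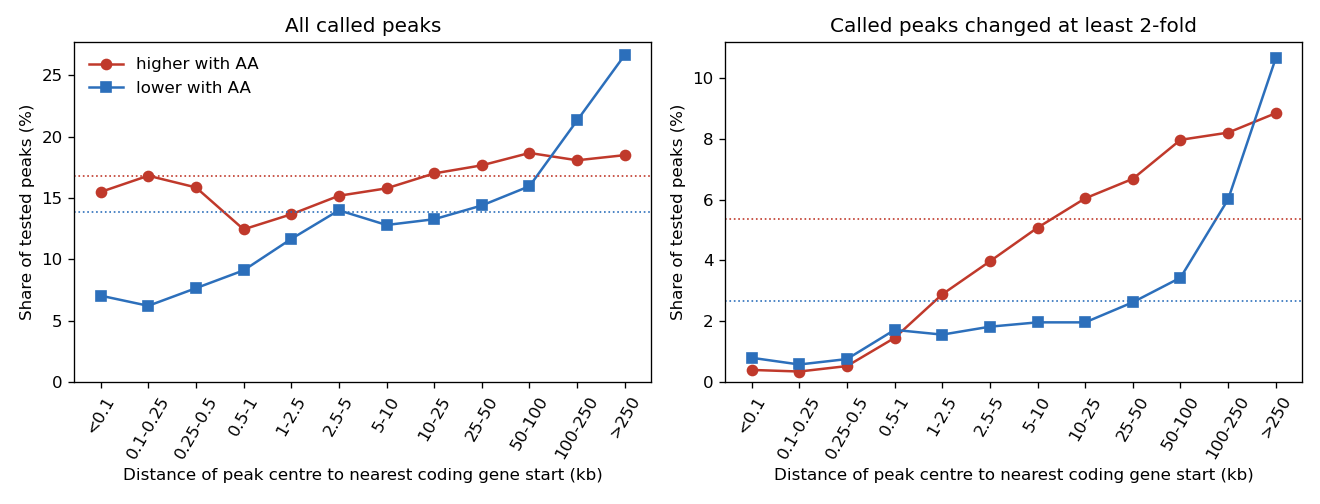
Share of tested peaks called higher (circles) and lower (squares) with AA, in percent, against distance from the peak centre to the nearest coding gene start in kb, for all called peaks (left) and called peaks changed at least 2-fold (right). Dotted lines are the shares over all tested peaks, 16.8% and 13.8% on the left and 5.36% and 2.67% on the right, and the lower share climbs to 26.7% beyond 250 kb.

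The size of the change also depended on distance. Called gains within 1 kb had a median log2 change of 0.31 and called losses one of -0.53, against 0.92 and -0.74 beyond 50 kb. Changes of at least 2-fold took 0.58% (higher) and 0.87% (lower) of the peaks within 1 kb, against 8.17% and 5.35% of those beyond 50 kb. Promoter peaks were stronger, with a median of 17.8 CPM in vehicle and a median width of 1037 bp, so a smaller change could pass the test there. The median SE was 0.11 within 1 kb and 0.22 beyond 50 kb. Peaks within 1 kb held 33.7% and 33.1% of the counts in the vehicle libraries and 34.2% and 34.8% with AA, and those beyond 50 kb 17.1% and 17.2% against 16.6% and 16.6%.

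Lying inside a gene mattered less. Among peaks more than 1 kb from a start, 16.5% of those inside a coding gene were higher and 14.3% lower, against 17.6% and 16.0% of those outside. By chromosome the higher share ran from 14.4% (chromosome 17) to 19.6% (chromosome 19), and the lower share from 10.9% (chromosome 19) to 17.4% (chromosome 13). Gains were 48.8% of the calls on chromosome 13 and 64.4% on chromosome 19.

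By baseline signal the shares of called gains and called losses differed more, with limits given below. In the quintile of peaks with the weakest vehicle signal (median 1.22 CPM), 3444 of 17460 tested peaks were higher (19.7%) and 420 lower (2.41%), with a median log2 change of 0.20. In the next 3 quintiles, in order of signal, 13.9%, 15.2% and 17.0% were higher and 10.3%, 17.9% and 22.1% lower. In the strongest quintile (median 29.4 CPM), 18.1% were higher and 16.6% lower, almost all by less than 2-fold. The weakest quintile held 2.20% and 2.25% of the vehicle counts and 2.82% and 2.73% of the AA counts.

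The contrast and these classes use the same vehicle libraries, so a peak that read low by chance in vehicle would fall in the weakest quintile and look like a gain. When 1 vehicle library set the classes and the change was fitted without it, the weakest quintile still had 12.4% higher and 1.91% lower with library 1 setting the classes, and 12.3% and 2.30% with library 2, at median log2 changes of 0.18 and 0.16. When the mean of the AA and vehicle libraries set the classes, it had 9.64% higher and 6.72% lower and its median turned to -0.08. Gains thus outnumbered losses by more at peaks weak in vehicle than at peaks weak on average over both groups. A weak vehicle peak could also enter the table because another group's libraries called it. How the consensus set was built is not given in the sources used here, and its part was not tested. All 1450 peaks that failed the filter on low counts lay in the weakest quintile, and with no filter its median log2 change was 0.18. A peak weak in vehicle could pass this filter through the AA or PGE2 libraries alone. In this quintile a fall starts from few counts, so losses are harder to call than gains. Holding out a vehicle library removes neither limit, and their part in these shares was not tested. In the strongest quintile gains made up 52.2% of calls, against 38% with loess scaling and 42.6% with library totals, so no direction is drawn for it. With DESeq2 gains were 87.9% and 68.3% of the calls in the second and middle quintiles, against 57.5% and 45.9%, while the weakest had 99.9% against 89.1%. Loess scaling gave 51.2% in the middle quintile.

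**Figure D2:**
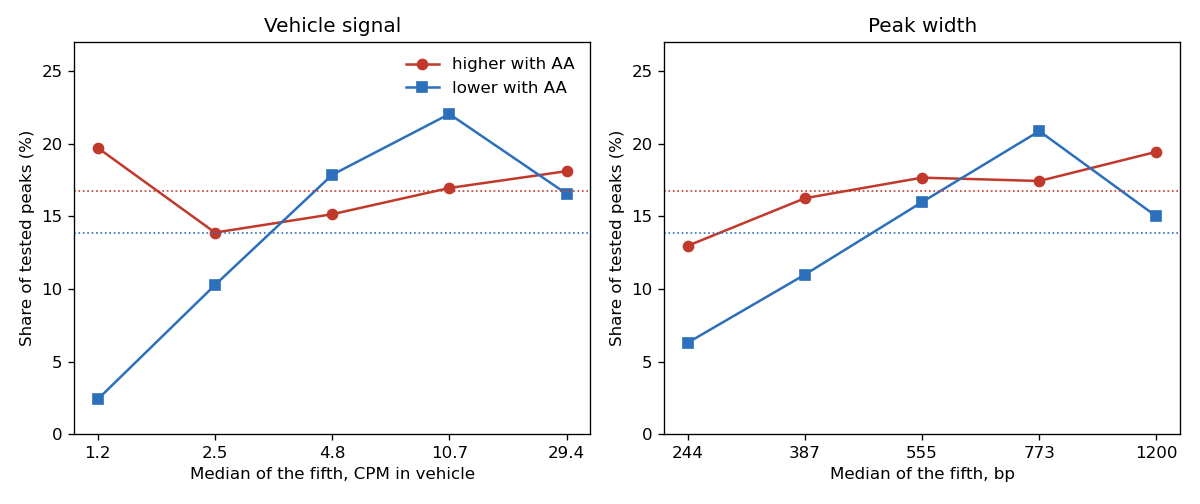
Share of tested peaks called higher (circles) and lower (squares) with AA, in percent, for quintiles of the vehicle signal (left, labelled by median CPM) and of peak width (right, labelled by median bp). Losses take 2.41% of the weakest quintile and 22.1% of the next to strongest, while dotted lines mark the shares over all tested peaks.

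Width followed signal in part. In the narrowest quintile (median 244 bp) 13.0% of the peaks were higher and 6.30% lower, and in the widest (median 1200 bp) 19.5% and 15.0%. The larger side turned in the widest with library totals (2948 higher, 3149 lower) and loess scaling (2753 and 3099). The largest share of losses, 20.9%, was in the next to widest quintile (median 773 bp). Changes of at least 2-fold fell with width, from 8.73% higher and 3.32% lower in the narrowest quintile to 1.04% and 0.79% in the widest.

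Crossing signal with width picked out a small class of peaks that were broad in the consensus set but nearly closed in vehicle. Among the peaks of the weakest signal quintile, the higher share climbed from 13.6% of 11352 in the narrowest quintile to 26.0% of 4851, 48.6% of 1100 and 64.0% of 150 as width went up by quintile, while the lower share went from 2.65% to 0.82% over the first 3. The width is that of 1 region set for all libraries, so a region broad with AA and weak in vehicle is by construction in this class.

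Within a signal quintile the share of losses still differed with distance. These crossed classes were read with TMM scaling only, and the balance of the strongest quintile moved with scaling. That quintile reached 253 CPM in vehicle, so strength was not matched within it. In the strongest signal quintile 20.9% of the peaks within 1 kb were higher and 4.92% lower, whereas beyond 50 kb 14.5% were higher and 30.5% lower. In the next to strongest quintile the same shares were 13.1% and 9.68% within 1 kb, and 19.1% and 32.5% beyond 50 kb. In the weakest quintile, by contrast, 23.4% of the peaks beyond 50 kb were higher and 3.39% lower.

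Neighbouring peaks tended to move together. Where adjacent tested peaks were both called, 88.8% of 1536 pairs less than 2 kb apart had the same direction. The share was 78.5% of 4300 pairs at 2 to 10 kb, 73.4% of 2961 pairs at 10 to 50 kb and 67.6% of 970 pairs farther apart. At genes whose peak near the start was higher, 21.5% of the other peaks assigned to them were higher and 9.93% lower. At genes whose peak near the start was lower, the shares were 8.94% and 26.0%, and at genes where that peak was not called 16.7% and 12.9%. Of 16240 genes with a tested peak within 50 kb of a start, 4240 had only higher calls, 3065 only lower calls, 1985 both and 6950 none.

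Promoters that gained accessibility were richer in CpG dinucleotides, the bases at which DNA is methylated in mammals, than those that lost it. The 300 bases from 250 before to 50 after the start were read for 10371 RefSeq promoters whose start lay inside a tested peak, at 9970 genes. The peak was higher at 1856, lower at 654 and not called at 7861. Their median GC content was 65.7%, 55.3% and 61%, and the median CpG count 26, 10 and 21. Split by CpG count, promoters with 0 to 13 CpGs were higher in 10.1% and lower in 16.4%, those with 14 to 20 in 12.9% and 5.57%, those with 21 to 28 in 21.5% and 2.60%, and those with 29 to 65 in 26.1% and 1.23%. The median log2 change went from -0.05 through 0.04 and 0.10 to 0.19 over these quartiles.

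The order of the quartile medians was the same with library totals (-0.08, 0.01, 0.07 and 0.15), loess scaling (-0.07, -0.0024, 0.06 and 0.15) and DESeq2 (-0.03, 0.05, 0.11 and 0.20). With DESeq2 the higher shares were 2.52%, 1.55%, 3.15% and 5.52%. Of the counts at these promoters, the quartile with most CpGs took up 25.0% and 24.6% in the vehicle libraries. The AA libraries had 26.2% and 26.7% there, and the PGE2 libraries 27.9% and 30.1%, and the PGE2 libraries lay farther from each other than any AA library lay from any vehicle library. Whether base composition of the libraries has a part in this pattern was not tested. The 4 printed promoters do not show it: within their 300 bases Isx had 2 and Syt8 3 CpGs, while Lmcd1 had 12 and Chrm3 11.

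**Figure D3:**
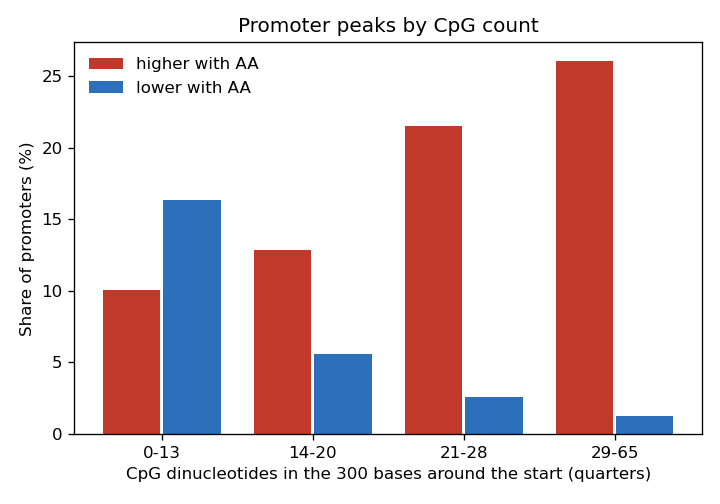
Share of promoters whose peak was called higher (red) or lower (blue) with AA, in percent, by the number of CpG dinucleotides in the 300 bases around the start (quartiles of 10371 promoters). The higher share goes from 10.1% to 26.1% and the lower share from 16.4% to 1.23%.

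Of the 6 motifs, GC box letters were found in 75.8% of the higher, 46.2% of the lower and 66.4% of the uncalled promoters, and in 47.0% of all promoters in the RefSeq table. CRE letters were in 4.15%, 1.38% and 3.35% (2.30% of all), and AP-1 letters in 6.79%, 4.43% and 4.69% (7.06% of all). TEAD letters were in 11.2%, 14.2% and 11% (13.4% of all), CCAAT in 32.7%, 40.1% and 40.3% (38.1% of all), and the HNF4 letters in 0.27%, 1.22% and 0.48% (0.46% of all), which is 5 higher and 8 lower promoters. GC box and CRE letters contain CpG, and these shares were not matched for CpG count.

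Farther from starts, the peaks with the smallest p in each distance class are given next. A peak inside Lmo7, 35288 bp from its nearest listed start (chromosome 14, 101804787 to 101805884), a gene of a protein at adherens junctions, held 17.7 and 17.1 CPM in vehicle and 51.5 and 55.1 CPM with AA, a 3.06-fold rise (log2 1.61, SE 0.08; edgeR adjusted p = 2.48e-19). A peak inside Nadk (chromosome 4, 155582261 to 155582798), the kinase gene that makes NADP from NAD, went from 5.67 and 6.33 to 28.5 and 28.1 CPM (4.72-fold; log2 2.24, SE 0.12). Both peaks were inside the gene they were nearest to, and the AA libraries of each lay far above vehicle.

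Beyond 50 kb from any start, the gain with the smallest p lay 207701 bp from Ankrd50, outside genes (chromosome 3, 38276660 to 38277570). It held 2.76 and 2.98 CPM in vehicle and 16.7 and 17.0 CPM with AA, a 5.85-fold rise (log2 2.55, SE 0.15). The next, 75119 bp from the proton pump subunit gene Atp6v1g3, rose 3.47-fold (log2 1.79, SE 0.11). Nearer to starts, a peak 5390 bp from the predicted gene Gm46963 went from 13.4 and 14.9 to 39.9 and 39.6 CPM (log2 1.49, SE 0.09), and the peak 2288 bp from Msln, which encodes mesothelin, held 3.29 and 3.66 CPM in vehicle and 18.2 and 19.3 CPM with AA.

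Losses of like confidence were found inside the scaffold gene Frmd4a (chromosome 2, 4546652 to 4547570), where signal went from 20.5 and 22.8 to 7.11 and 6.69 CPM (3.13-fold lower; log2 -1.65, SE 0.12; edgeR adjusted p = 1.7e-14). A peak 244365 bp from 4930591A17Rik (chromosome 2, 179170105 to 179171037) held 22.1 and 23.7 CPM in vehicle and 7.81 and 6.69 CPM with AA (log2 -1.65, SE 0.12). Neither lies at a promoter. Between 1 and 10 kb, a peak near the olfactory receptor gene Olfr65 fell 3.26-fold (log2 -1.70, SE 0.13) and one near the proline-rich protein gene Prpmp5 2.41-fold (log2 -1.27, SE 0.11). In addition, 2 very strong peaks fell by little with small p-values: one inside Lars2 and nearest to Limd1, from 211 and 223 to 148 and 133 CPM (log2 -0.63, SE 0.05), and one over the ribosomal RNA pseudogene Rn18s-rs5, nearest to Esp38, from 204 and 221 to 142 and 138 CPM (log2 -0.61, SE 0.05). Sequence like that of ribosomal RNA occurs in many copies, so the placement of reads at the second is uncertain. The first is reported with the same caution, since its signal is as high.

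**Figure D4:**
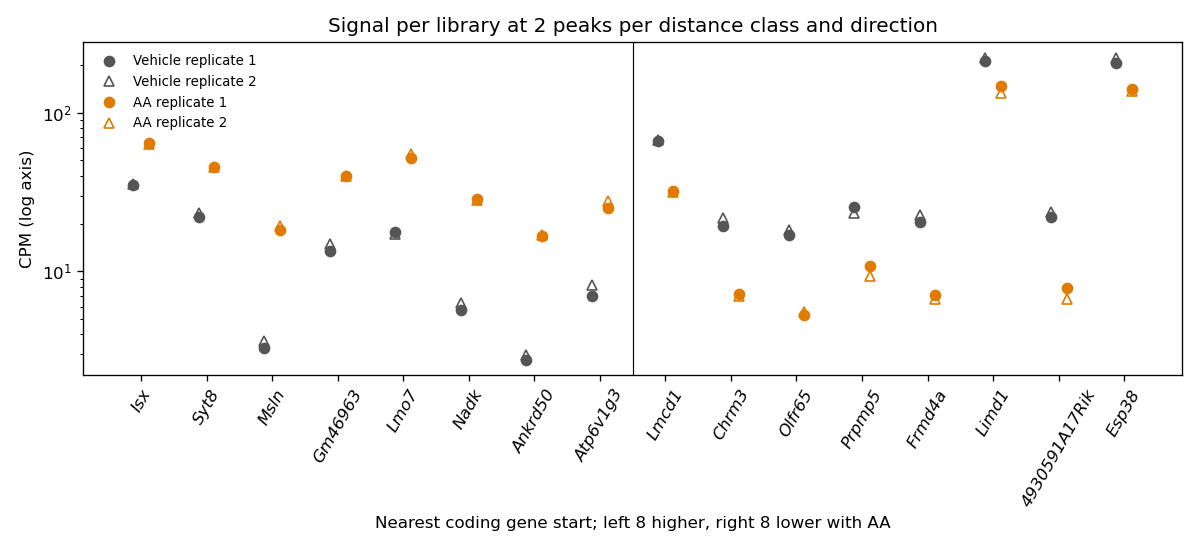
CPM on a log axis in each vehicle (grey) and AA (orange) library, replicate 1 as filled circles and replicate 2 as open triangles, at the 2 leading peaks (smallest p) of every distance class and direction, labelled by the nearest coding gene start. The peaks were chosen to have no overlap between groups, and their levels run from 2.76 CPM near Ankrd50 to 223 CPM near Limd1.

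In the strongest quintile of vehicle signal, which also holds the Lmo7 peak above, the next gains by size within 50 kb of genes not yet named were inside Dapk2, Cilk1 and Nek6. Dapk2, a death-associated protein kinase gene, went from 18 and 20.9 to 41.9 and 43.7 CPM (log2 1.14, SE 0.08). Cilk1, the ciliogenesis kinase gene, rose by 1.08 (SE 0.09) on the log2 scale and Nek6, a mitotic kinase gene, by 1.05 (SE 0.09). The next losses there, leaving out those at Olfr65, Frmd4a, 4930591A17Rik, Chrm3 and Prpmp5 given above, were inside Dnajc5b (2.82-fold, log2 -1.50, SE 0.13) and inside Esrrg, an orphan nuclear receptor gene (2.47-fold, log2 -1.31, SE 0.12). After these came a peak 7454 bp from Arl15 (2.33-fold, log2 -1.22, SE 0.11). At Esrrg the libraries held 24.0 and 20.8 CPM in vehicle and 8.16 and 10.03 CPM with AA.

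In the weakest quintile, where only peaks averaging log2 CPM 0 or more were eligible, the leading gains by size rested on few counts. A peak inside Atp8a1, nearest to the start of Shisa3, had 1 and 3 counts in vehicle and 23 and 19 with AA, a ratio of 10.4 with a 95% exact interval of 3.77 to 39.9 that covers counting error only. A peak 20949 bp from Nabp1, a single-stranded DNA binding protein gene, had 3 and 7 counts against 47 and 41 (ratio 8.70, interval 4.51 to 18.8). The losses were a peak at the start of Fign, a microtubule-severing enzyme gene, with 21 and 19 counts against 5 and 3, and one near Adgra3 with 32 and 13 against 5 and 6. Without vehicle replicate 1 the Adgra3 loss did not pass the edgeR test (log2 -1.23, adjusted p = 0.221).

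In the widest quintile, after the Msln peak, gains by size within 50 kb of genes not yet named were inside Trim29, an epithelial TRIM family gene (4.07-fold; log2 2.02, SE 0.16), near Spef1l (4.05-fold; log2 2.02, SE 0.18) and inside Slc8a3, nearest to Smoc1 (3.78-fold; log2 1.92, SE 0.19). Trim29 held 3.14 and 3.28 CPM in vehicle and 14.1 and 11.9 CPM with AA. The losses there, leaving out genes given above, were inside Gm5724 (4.89-fold; log2 -2.29, SE 0.20), where related gene copies make read placement uncertain, inside the protease gene Tmprss11f, nearest to Tmprss11g (3.32-fold; log2 -1.73, SE 0.14), and 13965 bp from Stc2, the stanniocalcin 2 gene (3.09-fold; log2 -1.63, SE 0.14). The Stc2 peak went from 15.8 and 14.6 to 5.07 and 4.73 CPM. In the narrowest quintile, peaks inside Ptprn2 (5.11-fold) and near Nmu, the neuromedin U gene (5.00-fold), rose, and peaks inside the growth factor gene Fgf9 (3.16-fold) and near Adam7 (3.09-fold) fell.

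Gene lists were then read against these shares by assigning each peak to the nearest coding gene start within 50 kb. The lists were drawn up with earlier results of these data known, so their directions are descriptions. The lists leave out peaks beyond 50 kb from a start, so the nearer distance classes are the closer comparison. Up to 1 kb, at 1 to 10 kb and at 10 to 50 kb, 15.5%, 15.2% and 17.3% of peaks were higher. In the same classes 7.26%, 12.9% and 13.8% were lower. The genome-wide 16.8% and 13.8% include the peaks beyond 50 kb, of which 19.4% were lower. The fetal and regenerative genes, known from fetal gut and from repair of injured epithelium, had 68 of 125 peaks higher (54.4%) and 3 lower (2.40%), with a median log2 change of 0.39 against -0.02 over all tested peaks. Their summed signal was 1290 and 1295 CPM in vehicle and 1718 and 1746 CPM with AA. Il33, an alarmin gene, had 3 of 6 peaks higher, Anxa3 4 of 6 and Tnip3 4 of 9. Other members did not gain: Ifitm3, an interferon-induced gene, had 1 of 4 lower and a median log2 change of -0.44, and the peaks of Clu (3), Krt7 (4) and Gja1 (1) were not called, with medians of -0.11, 0.08 and -0.29. Of the 23 peaks of the list within 1 kb of a start, 15 were higher and the others were not called, where 15.5% of all such peaks were higher.

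Growth factor and matrix genes also had more gains than losses. EGF family ligands and receptors had 28 of 70 peaks higher (40.0%) and 3 lower, with a median log2 change of 0.21. The ligand genes Tgfa and Hbegf had 5 of 9 and 4 of 7 higher, and Egfr, the gene of their receptor, 5 of 9. Hbegf and Egfr each also had 1 peak lower. A peak 35355 bp from the Egfr start held 1.53 and 1.07 CPM in vehicle and 8.16 and 9.38 CPM with AA. At the receptor genes Erbb2 and Erbb3, 0 of 4 and 0 of 7 peaks passed edgeR or DESeq2, with 1 and 2 at an unadjusted p under 0.05. A peak 411 bp from the start of Egf, itself a ligand, fell from 6.13 and 5.65 to 3.03 and 2.86 CPM (log2 -0.996, SE 0.19). Of the 11 peaks of this list within 1 kb of a start 2 were higher and 2 lower, where 15.5% and 7.26% of all such peaks were. Basement membrane genes had 23 of 68 peaks higher (33.8%) and 8 lower, with a median of 0.08, among them 6 of 11 at Lama5 and 3 of 4 at Col4a1 higher, while Hspg2, the perlecan gene, had 2 of 7 lower. Some genes stand in several lists, such as Areg and Ereg in the fetal and EGF lists and Cldn4 in the fetal and claudin lists, so these counts are not independent.

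Claudins and tight junction genes had 26 of 80 peaks higher (32.5%) and 5 lower, with 3 of 9 at Cldn23 higher. DESeq2 called 6 of the 80 higher, where it called 5993 of 87515 over all peaks, and without 1 library edgeR called as few as 13. The peak inside Ocln, the occludin gene, went from 10.3 and 9.69 to 17.0 and 19 CPM (log2 0.84, SE 0.11), but Ocln had 2 peaks higher and 2 lower of 8. Integrins had 23 of 94 higher and 12 lower with a median log2 change of -0.02, and 17 lower when libraries were scaled by totals. Keratins had 16 of 78 higher and 7 lower with a median of 0.0037, and the list's leading peak in either direction was near Krt80, at 11484 and 12870 bp from its start: one rose 2.91-fold (log2 1.54, SE 0.11) and the other fell 1.67-fold (log2 -0.74, SE 0.13).

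Crypt base stem cell genes showed the opposite balance, with 54 of 213 peaks lower (25.4%) and 20 higher (9.39%) and a median log2 change of -0.19. Summed signal went from 3085 and 3114 CPM to 2856 and 2819 CPM. Of the 22 peaks within 1 kb of a start, 5 were higher and 3 lower, where 15.5% and 7.26% of all such peaks were. Aqp4, a water channel gene, had 6 of 10 peaks lower and 1 higher, Axin2, a Wnt feedback gene, 6 of 16 lower and 1 higher, and Msi1, an RNA-binding protein gene, 3 of 9 lower. Not all members had calls in this direction. Ephb2, a receptor that positions cells in the crypt, had 3 of 11 higher and 1 lower, with a median log2 change of -0.10. Ascl2, a stem cell transcription factor gene, had 2 of 4 higher (median 0.09). At Lgr5, the stem cell receptor gene, 0 of 7 peaks passed edgeR or DESeq2, and 0 had an unadjusted p under 0.05. The Lgr5 log2 changes ran from -0.49 to 0.17 with a median of -0.15, so the lack of calls does not show a lack of change. DESeq2 called 16 peaks of this list lower and 8 higher, and 48 of the fetal list higher. Without 1 library the stem cell list had 34 to 64 lower and the fetal list 55 to 71 higher.

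Wnt feedback genes, which overlap that list, had 20 of 102 peaks lower and 13 higher. Lef1, the gene of a Wnt-responsive transcription factor, had 3 of 7 lower, and Myc 4 higher and 4 lower of 13. Ccnd1, the cyclin D1 gene, went the other way with 4 of 11 higher. At a peak 31670 bp from its start, signal went from 26.3 and 27.5 to 47.2 and 46.7 CPM (log2 0.80, SE 0.08).

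The machinery that handles AA changed at some genes and in both directions. Prostaglandin synthesis and signalling genes had 26 of 109 peaks higher and 16 lower with a median log2 change of 0.02. Pla2g4a, which encodes the phospholipase that frees AA from membranes, had 4 of 7 higher and 1 lower, Ptgs2, the inducible cyclooxygenase gene, 3 of 5 higher and Ptgs1, its constitutive relative, 2 of 8 higher. Tbxas1, the thromboxane synthase gene, had 4 of 8 lower, and 1 of its peaks went from 41.0 and 42.3 to 24.4 and 24.9 CPM (log2 -0.76, SE 0.08). Among genes of prostaglandin E receptors, Ptger2 had 2 of 3 higher and 1 lower, Ptger3 2 of 3 lower and Ptger4 1 higher and 1 lower of 6. Of the list's 14 peaks within 1 kb of a start 3 were lower and the others were not called. Of all such peaks 15.5% were higher and 7.26% lower.

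Among genes that make polyunsaturated fatty acids, losses gathered at Fads1 and Fads2. Desaturases and elongases as a list had 19 higher and 19 lower of 112, or 17.0% in each direction. The lower share was above those of the distance classes within 50 kb, of which the largest was 13.8%. The list leaned to losses with library totals (17 higher, 25 lower), loess scaling (19 and 22) and DESeq2 (4 and 9). Fads1 and Fads2, the delta-5 and delta-6 desaturase genes of the pathway that yields AA, had 5 of 7 and 3 of 4 peaks lower and the others not called. A peak inside Fads1, 1426 bp from its start, went from 7.66 and 9.08 to 3.59 and 3.02 CPM (2.51-fold; log2 -1.33, SE 0.17; edgeR adjusted p = 5.26e-08). Acsl3, an acyl-CoA synthetase gene, had 5 of 8 peaks higher. Scd1, the stearoyl-CoA desaturase gene, had 2 of 10 higher and 1 lower, and Fads3, also in the list, 1 of 12 higher and 2 lower. The genes Fads1, Fads2 and Acsl3 were singled out after their values were seen.

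Signalling and transcription factor lists were mixed. BMP and TGF-beta genes had 33 of 132 higher and 18 lower, where Smad7, an inhibitor of the pathway, had 7 of 16 higher and Id2 5 of 14, while the ligand gene Bmp7 had 9 of 10 lower. At 1 of these, inside Bmp7 and 26103 bp from its start, signal went from 18.5 and 18.1 to 9.01 and 9.30 CPM (log2 -0.997, SE 0.11). Notch genes had 19 of 91 higher (20.9%) and 9 lower (9.89%), with 7 of 13 at the receptor gene Notch2, and DESeq2 called 4 of the 91 higher. RUNX, TEAD and SOX factor genes had 23 of 84 higher and 7 lower, with 6 of 16 at Tead4 and 4 of 5 at Sox21 higher and 3 of 8 at Sox4 lower. KLF factor genes had 20 of 84 higher and 8 lower. AP-1 factor genes had 14 higher and 14 lower of 75 and ETS factor genes 18 and 15 of 103. A peak near Junb rose 1.36-fold (log2 0.45, SE 0.06) and one near Jun fell 1.70-fold (log2 -0.76, SE 0.10).

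Gut identity factor genes had 22 of 143 peaks higher and 26 lower, with both directions among its genes. Isx had 7 of 8 higher, whereas Hnf4a had 5 of 12 lower. Nuclear receptor genes had 24 of 149 higher and 27 lower: Pparg, a receptor for fatty acids, had 5 of 16 higher, Ppara, its relative, 5 of 13 lower and 1 higher, and Vdr, the vitamin D receptor gene, 6 of 12 lower. A peak inside Pparg held 1.45 and 1.91 CPM in vehicle and 6.33 and 6.28 CPM with AA (3.74-fold; log2 1.90, SE 0.22).

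Brush border genes had 18 of 96 higher (18.8%) and 21 lower (21.9%). Of their 14 peaks within 1 kb of a start 2 were higher and 5 lower, where 15.5% and 7.26% of all such peaks were. Enpep, an aminopeptidase gene, had 5 of 11 lower and 1 higher, and Myo1a, a microvillus myosin gene, 3 of 3 higher. Lipid uptake and lipoprotein genes had 15 higher and 11 lower of 80, and secretory lineage factor genes 9 (10.6%) and 12 (14.1%) of 85. Proliferation genes had 7 higher and 6 lower of 59, ribosomal protein genes 10 and 14 of 76, respiratory chain genes 8 and 6 of 48 and Hox genes 5 and 3 of 48. Epithelial markers had 19 higher and 15 lower of 125. Immune markers had 2 and 2 of 15, fibroblast and muscle markers 4 and 3 of 31, and endothelial and neural markers 6 and 6 of 41.

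For some lists the balance of calls moved with the scaling. With library totals gains were 43.8% of the calls at epithelial markers (55.9% with TMM), 54.1% at integrins (65.7%), 58.3% at keratins (69.6%), 46.7% at lipid uptake genes (57.7%), 57.7% at Notch genes (67.9%), 45.5% at Hox genes (62.5%) and 46.2% at respiratory chain genes (57.1%). Loess scaling gave 37.5% at epithelial markers, 56.0% at keratins, 38.9% at proliferation genes (53.8% with TMM) and 46.2% at respiratory chain genes. With DESeq2 the larger side turned at gut identity genes (58.8% gains against 45.8%), Wnt feedback genes (53.8% against 39.4%), nuclear receptor genes (53.8% against 47.1%) and secretory lineage factor genes (3 of 5 calls, against 42.9%).

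**Figure D5:**
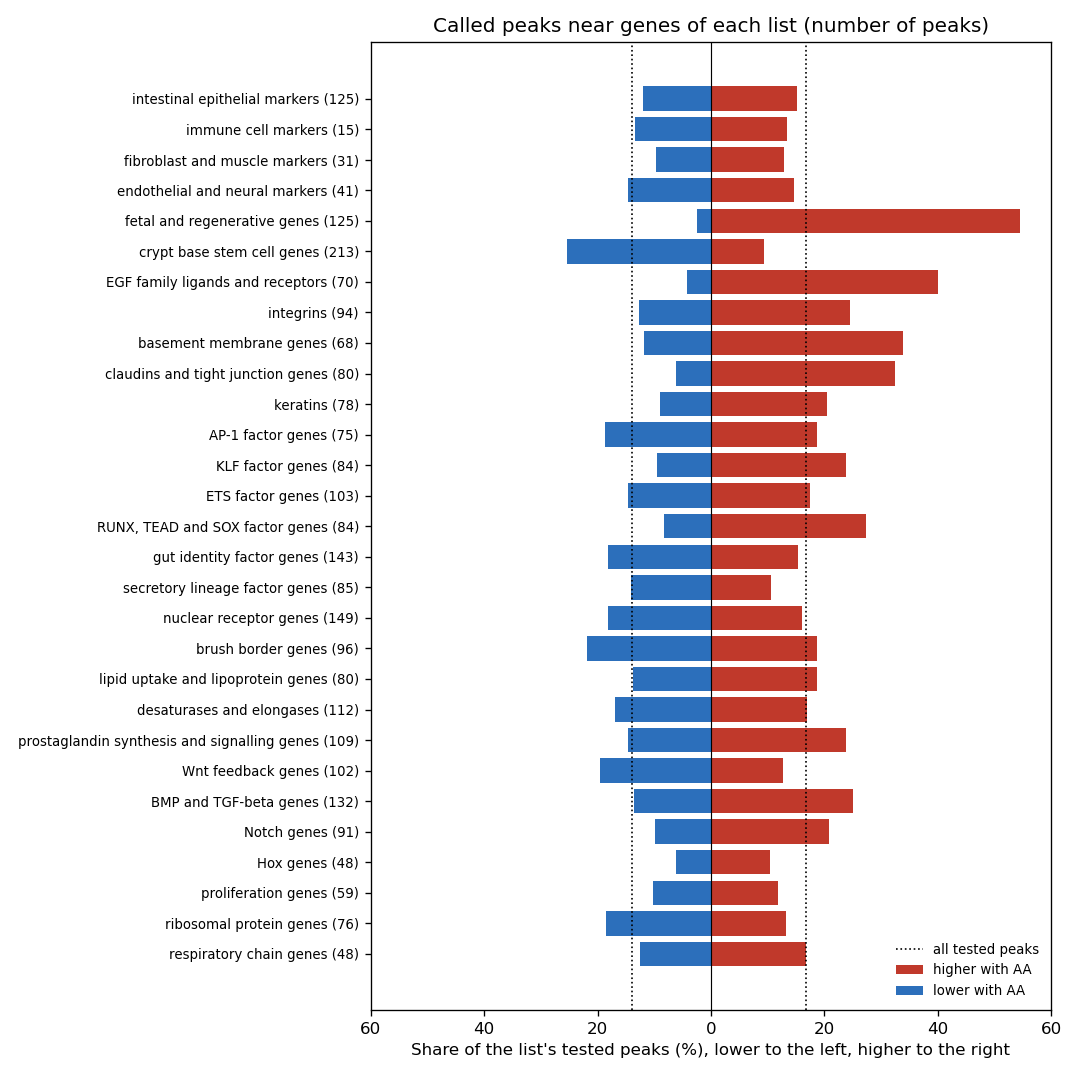
Percent of each list's tested peaks called higher (right, red) and lower (left, blue) with AA, with the number of tested peaks in brackets. Dotted lines are the shares over all tested peaks, including those beyond 50 kb from a start, which the lists leave out. The fetal and regenerative bar reaches 54.4% to the right and the crypt base stem cell bar 25.4% to the left.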

How the data were processed

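The authors deposited 1 table of raw counts per consensus peak for 6 libraries, per the file headers made with featureCounts 1.6.3. Per the submitters' processing notes, the build was mm10, and the tools named are BWA, Trim Galore, SAMtools, Picard and MACS2. Settings of these tools, how peaks were merged into a consensus, and any shift of reads for the transposase were not given in the sources used here. The members and gene lists were chosen with earlier results of these data known.

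The counts were tested with edgeR 4.0.16 (R 4.3.3): TMM scaling, filterByExpr (1450 of the 88965 peaks removed), a robust quasi-likelihood fit of all 6 libraries with group as its term, and the contrast AA minus vehicle. Benjamini-Hochberg adjustment ran over all 89347 tested peaks of the table, including chromosomes X and Y, with a threshold of 0.05. There were 3 residual degrees of freedom and a median of 42.3 prior degrees of freedom. An SE is the log2 change divided by the square root of F. The 2 vehicle libraries, and likewise the 2 AA libraries, differed little beyond sampling noise (chi-square over its degrees of freedom 1.10 and 1.12). The PGE2 libraries, which also enter the spread, gave 1.56. Each library was treated as 1 replicate, though these values do not show that they were independent. The median biological coefficient of variation in the fit was 4.49%, so small p-values reflect this small spread. The labels give no batch. The fit was tested on counts simulated with its own spread, with known changes at peaks averaging log2 CPM of at least 1. It recovered 39% of 100 peaks changed 1.5-fold and 80% of 100 changed 2-fold, with 31 false calls over 88799 peaks. A peak that was not called may therefore have changed.

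Distance was measured from the peak centre to the nearest protein-coding gene start in RefSeq's promoter table (GRCm38.p6), which matched 17492 of 21887 coding genes; for the others either gene end was used. A peak may act on another gene than its nearest. Exons and introns were not used. Width and vehicle signal were split into quintiles. Named peaks were called, did not overlap between groups and had an average log2 CPM of at least 1 (0 in the weakest quintile), 1 per gene, in this order and leaving out genes already named: the 2 smallest p per distance class and the 2 or 3 largest changes in the strongest, weakest, widest and narrowest quintiles, in each direction, plus the smallest p of each list. Peaks on chromosome 18 were counted but not named. Some other peaks and genes that the rule could name are not reported here. Counts per gene were chosen after their values were seen. Alternatives were library totals, loess offsets computed with limma 3.58.1, DESeq2 1.42.0, no filter, AA and vehicle libraries only, the replicate number as a block, each library left out, a threshold of 0.01, other baselines for the signal classes and distance to either gene end. CpG shares under other scalings were added after seeing the data.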

Additional observations from a re-analysis of the deposited data

How the results depend on the processing

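With 1 library left out, 10203 to 16592 peaks were higher and 7652 to 13377 lower, the larger numbers being without a PGE2 library; 0 peaks turned direction among calls in any refit. DESeq2 called 5993 higher and 2968 lower, of which edgeR also called 5981 and 2968; the cause was not tested. At an adjusted p under 0.01, 7429 were lower. Median log2 changes by distance class (up to 1 kb, 1 to 10 kb, 10 to 50 kb, over 50 kb) were 0.032, -0.064, -0.062 and -0.11 with library totals. Loess scaling gave 0.034 up to 1 kb, -0.011 at 10 to 50 kb and -0.057 beyond, and DESeq2 -0.019 and -0.067 in the last 2. With 1 library left out they ranged from 0.052 to 0.086, -0.041 to -0.019, -0.032 to -0.014 and -0.079 to -0.060. For the narrowest and widest quintiles the medians were -0.046 and 0.011 with library totals, 0.058 and 0.0061 with loess scaling, 0.0057 and 0.055 with DESeq2, and -0.035 to 0.026 and 0.037 to 0.055 with 1 library left out, so the narrowest quintile has no settled sign. For the weakest and strongest signal quintiles they were 0.16 and -0.010 with library totals, 0.27 and -0.025 with loess scaling, 0.14 to 0.24 and 0.018 to 0.034 with 1 library left out, and -0.081 and 0.047 with classes set by the mean of AA and vehicle. The strongest gave 0.034 with DESeq2 and 0.029 with classes set by vehicle library 1, and the weakest 0.16 with classes set by vehicle library 2. Differences of replicate 1 minus replicate 2 were nearly uncorrelated between groups (0.00469, -0.0198 and 0.0357). Within vehicle and AA these differences were mostly counting noise (chi-square over its degrees of freedom 1.10 and 1.12). The correlations therefore cannot show whether same-numbered libraries shared a culture or preparation, and the labels do not say. The replicate block gave 14958 higher and 12177 lower. The 36 named peaks were chosen for a small p or a large change, so that most kept their call in other settings was largely given by the choice. Without vehicle replicate 1 the Adgra3 log2 change was -1.23, against -2.02 in the main fit. DESeq2 gave Fign and Adgra3 no adjusted p. Of all calls of the main fit DESeq2 kept 33.4%. Depth limits the weakest quintile, whose peaks held a median of 16 counts per vehicle library.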
